A study of Mus musculus with 60 samples.

Results

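The genes described here encode the main proteins of the basement membrane: 5 laminin chains (Lama1, Lama5, Lamb1, Lamb2 and Lamc1), both ubiquitous chains of collagen IV (Col4a1 and Col4a2), the linkers nidogen (Nid1) and perlecan (Hspg2), and Sparc, a matrix protein that binds collagen. They were chosen by name, and all 10 were found among the 24260 gene symbols of the nascent RNA files. Nascent RNA-seq was done on E14, a mouse embryonic stem cell line grown with serum and LIF on gelatin. The siCtrl group (2 libraries) received a control siRNA and the siEsrrb group (2 libraries) an siRNA against Esrrb, a nuclear receptor that maintains the naive pluripotent state. Both groups were transfected with a lipid reagent and harvested 72 h later, and RNA was taken from the washed chromatin pellet, where transcripts are still being made. The series text leaves nascent RNA-seq out of its statement on biological replicates and no label says that libraries of a group came from separate cultures, so p-values measure the spread between these libraries only.

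A basement membrane is a thin sheet of matrix on which epithelia rest. Laminins are trimers of an alpha, a beta and a gamma chain; they assemble into a polymer at the cell surface, and a separate collagen IV network is tied to it by nidogens and by the heparan sulfate proteoglycan perlecan. In the early mouse embryo the primitive endoderm lays down such a sheet beneath the epiblast, the tissue that embryonic stem cells resemble, and the stem cells also make laminins themselves.

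The authors deposited RPKM, reads per kilobase of length scaled to library size, where the length spans introns. From these, read numbers could be recovered as whole numbers for 31760 of 31771 transcripts above 0, with library totals between 22363943 and 68002338 reads. RPKM are given below as deposited; percentages of control and group means use RPKM multiplied by a scaling factor per library. The targeted gene, Esrrb, had 3.23 RPKM in siCtrl replicate 1 and 3.36 in replicate 2, against 1.38 and 2.20 in the siEsrrb libraries of the same numbers. That was 44.2% and 67.0% of control, so the 2 siEsrrb libraries differed in how far Esrrb nascent RNA lay below the control (log2 fold change -0.72, SE 0.15, limma adjusted p = 0.281).

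Lama1 and Nid1 had much less nascent RNA in both siEsrrb libraries and Lamc1 somewhat less, while Lama5 and, by a smaller margin, Lamb2 had more. None of these differences passed the test over all genes (limma with Benjamini-Hochberg adjustment, two-sided, threshold 0.05), which called 0 of 9758 genes, a background of 0.0%. It had 1098 genes at an unadjusted p under 0.05. Voom, the other tool run on these groups, also called 0 and had 1196 at an unadjusted p under 0.05. A mean of at least 0.5 RPKM was needed for the test, and 8 of the 10 genes had it; Col4a1 and Col4a2 did not. Adjusted p-values of the 8 ran from 0.247 to 0.971. An unadjusted p under 0.05 was found for 3 of the 8 (Lama1 and Nid1 lower, Lamb2 higher), against 11.3% of all tested genes (5.33% lower and 5.92% higher).

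**Figure D1:**
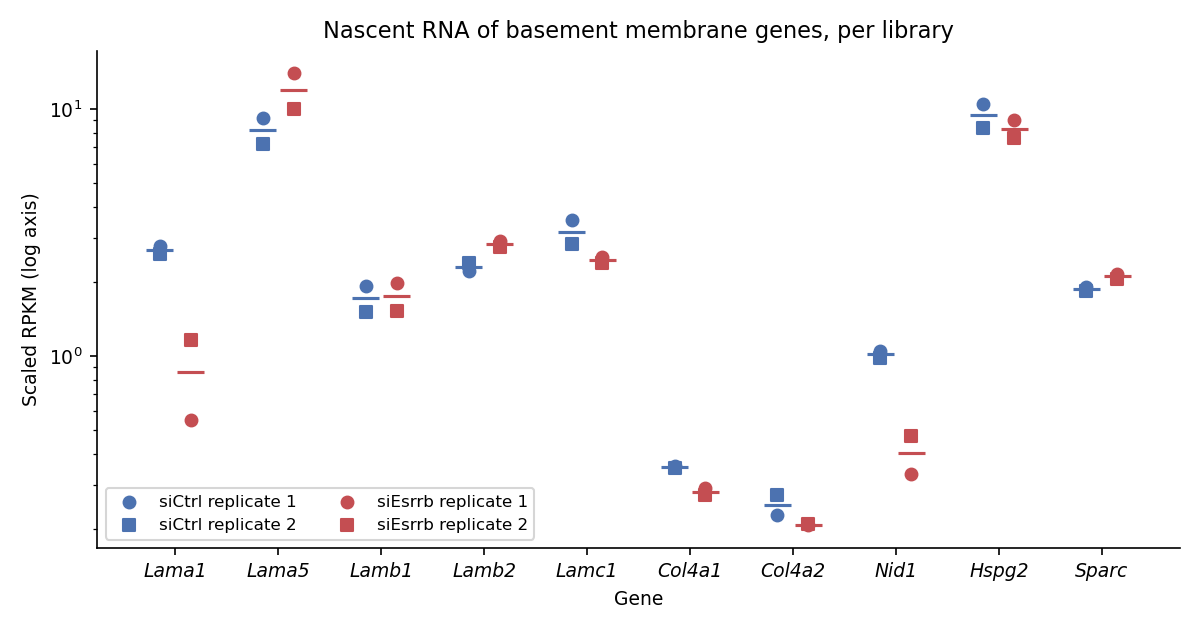
Scaled RPKM (log axis) of the 10 genes in each of the 4 libraries, with siCtrl in blue, siEsrrb in red, circles for replicate 1, squares for replicate 2 and short lines for group means. Hspg2 and Lama5 have the highest levels and Col4a1 and Col4a2 the lowest. Lama1 and Nid1 are the genes whose siEsrrb points lie farthest below the control points.

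Lama1 encodes the laminin alpha chain typical of early embryonic basement membranes. Its level was 2.66 RPKM in siCtrl replicate 1 and 2.79 in replicate 2, and 0.508 and 1.23 RPKM in the siEsrrb libraries in the same order, which holds for all values below. Both siEsrrb libraries lay below both controls, and siEsrrb replicate 1 was the lowest. These values rest on 8271, 23790, 1424 and 9525 reads. Lama1 stood at 19.8% of control in replicate 1 (95% interval of the read ratio 18.7% to 20.9%) and at 45.1% in replicate 2 (44.1% to 46.2%). These intervals are exact binomial ones and cover counting error only. They do not overlap, so the replicates differed in the size of the reduction beyond counting error. The siEsrrb library with less Esrrb nascent RNA also had less of Lama1. The replicates also differed in read depth and in the aligners named for them, and a link between Lama1 and the Esrrb level was not tested. Scaled means were 2.69 ± 0.152 RPKM in siCtrl and 0.858 ± 0.433 RPKM in siEsrrb (SD, n = 2 libraries each). The log2 fold change on the log2(RPKM + 0.5) scale was -1.27 (SE 0.24, limma adjusted p = 0.277), the 28th lowest of 9758 genes. The pseudocount of 0.5 shrinks it: voom on the recovered reads gave -1.74 (SE 0.35, adjusted p = 0.160).

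Lama5 encodes the alpha chain found in most later basement membranes and in the laminins used to culture pluripotent cells. It had 8.77 and 7.77 RPKM in siCtrl, and 12.8 and 10.6 RPKM in siEsrrb. Both siEsrrb libraries were above both controls, at 151% (147% to 155%) and 139% (137% to 142%) of control. The log2 fold change was 0.51 (SE 0.22, limma adjusted p = 0.497), the 368th highest of 9758. Within each group replicate 1 was above replicate 2, which widens the error of Lama5 (scaled means 8.20 ± 1.43 and 11.97 ± 2.76 RPKM, SD, n = 2 each). A microRNA gene (Mir7005) and a noncoding gene (Gm52542) overlap Lama5 in the annotation, and their reads cannot be told from those of Lama5.

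RPKM are per length, so the read densities of both alpha chain genes can be set against each other within a library. The length used is the gene span with introns (125381 bases for Lama1 and 49487 for Lama5). How far exon content shapes the levels, shares and ratios between genes, here and below, was not tested. Lama1 made up 23.3% and 26.4% of the summed RPKM of Lama1 and Lama5 in siCtrl replicates 1 and 2, and 3.82% and 10.4% in siEsrrb. The share was lower in both siEsrrb libraries, and the scaling of the libraries has no part in it. The summed level of both genes was 121% of control in replicate 1 and 114% in replicate 2, and Lama5 had the higher level of them in every library.

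Of the beta chains, which pair with either alpha chain, Lamb1 lay close to the control and Lamb2 above it. Lamb1 had 1.83 and 1.62 RPKM in siCtrl and 1.82 and 1.60 RPKM in siEsrrb, with overlapping groups. It stood at 103% (97.8% to 109%) and 101% (97.6% to 104%) of control, and its log2 fold change was 0.02 (SE 0.15; -0.01 without the scaling factors). Lamb2, the other beta chain, had 2.10 and 2.56 RPKM in siCtrl and 2.68 and 2.91 RPKM in siEsrrb. Both siEsrrb libraries were above both controls, at 132% (118% to 149%) and 117% (109% to 124%) of control. The log2 fold change of Lamb2 was 0.26 (SE 0.08, limma adjusted p = 0.394), from 555 to 1922 reads per library. Lamb1 made up 46.5% and 38.8% of the summed RPKM of both beta chain genes in siCtrl and 40.4% and 35.4% in siEsrrb, so these shares overlap between the groups.

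Lamc1 encodes the gamma chain common to most laminins. It had 3.37 and 3.07 RPKM in siCtrl and 2.32 and 2.52 RPKM in siEsrrb, 71.3% (69.0% to 73.7%) and 84.3% (82.7% to 86.0%) of control. Both siEsrrb libraries lay below both controls, but the log2 fold change of -0.31 (SE 0.12, limma adjusted p = 0.459) was far smaller than that of Lama1. Per length, Lama1 stood at 0.790 and 0.910 times the level of Lamc1 in siCtrl, and at 0.219 and 0.487 times in siEsrrb. Lama5 went from 2.60 and 2.54 times the level of Lamc1 in siCtrl to 5.52 and 4.19 times in siEsrrb. A pseudogene (Gm8818) overlaps Lamc1 in the annotation, and its reads cannot be told from those of Lamc1.

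**Figure D2:**
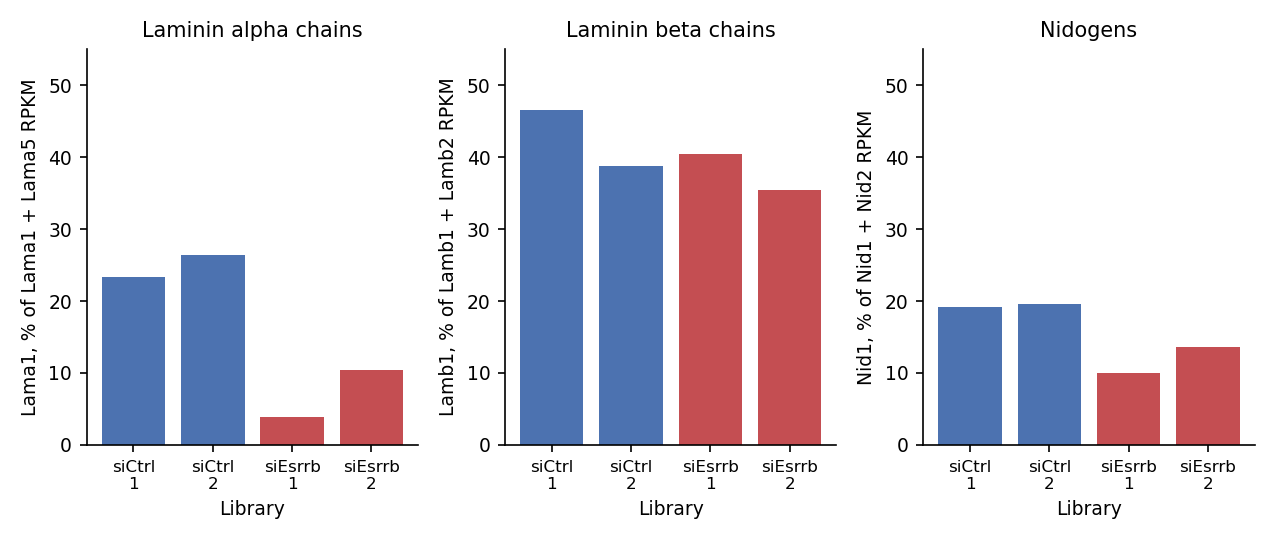
Share of Lama1 in the summed RPKM of Lama1 and Lama5, of Lamb1 in that of Lamb1 and Lamb2, and of Nid1 in that of Nid1 and Nid2, as percent, with a bar per library (siCtrl blue, siEsrrb red). The shares of Lama1 and Nid1 are lower in both siEsrrb libraries; those of Lamb1 overlap.

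Nid1 encodes nidogen, which binds the laminin gamma chain and links it to collagen IV. It had 1.00 and 1.06 RPKM in siCtrl, and 0.307 and 0.4997 RPKM in siEsrrb. Both siEsrrb libraries lay below both controls, at 31.7% (28.7% to 35.0%) and 48.2% (45.9% to 50.6%) of control, and again replicate 1 was the lower. The reads behind these values were 1852, 5398, 512 and 2308. Scaled means were 1.02 ± 0.0480 RPKM in siCtrl and 0.403 ± 0.0991 RPKM in siEsrrb (SD, n = 2 each). The log2 fold change was -0.75 (SE 0.11, limma adjusted p = 0.247, unadjusted p = 0.00183), the 121st lowest of 9758. Since Nid1 is low, the pseudocount matters more here than for Lama1, and voom gave -1.30 (SE 0.17, adjusted p = 0.128). Its paralog Nid2, listed among the other basement membrane genes, had 4.21 and 4.37 RPKM in siCtrl and 2.77 and 3.16 RPKM in siEsrrb, 68.2% and 74.3% of control (log2 fold change -0.43, SE 0.09, limma adjusted p = 0.281). Nid1 made up 19.2% and 19.6% of the summed RPKM of both nidogen genes in siCtrl and 9.96% and 13.6% in siEsrrb.

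The windows upstream of Nid1, lower in both siEsrrb libraries, and of Lama5, higher in both, are shown because these genes lay on opposite sides of the control with the largest differences among those that have a promoter entry. Each is the 250 bases before the RefSeq start on GRCm38.p6, 5′ to 3′ in the direction of the gene: chr13:13437352-13437601, plus strand, for Nid1, and chr2:180225860-180226109, minus strand, for Lama5. Capitals mark a GC box (GGGCGG on either strand) or a CCAAT box (CCAAT on either strand).
Nid1: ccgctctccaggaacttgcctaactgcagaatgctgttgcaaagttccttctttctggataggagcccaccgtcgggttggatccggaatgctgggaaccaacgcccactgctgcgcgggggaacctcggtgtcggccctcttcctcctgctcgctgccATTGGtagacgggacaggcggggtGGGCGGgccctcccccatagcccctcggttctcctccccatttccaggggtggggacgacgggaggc
Lama5: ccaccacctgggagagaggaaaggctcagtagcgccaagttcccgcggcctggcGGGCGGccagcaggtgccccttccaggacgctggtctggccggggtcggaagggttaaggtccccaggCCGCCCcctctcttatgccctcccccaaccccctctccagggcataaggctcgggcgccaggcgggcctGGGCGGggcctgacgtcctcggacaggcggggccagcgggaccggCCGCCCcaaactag

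A promoter entry was found for 8 of the 10 genes. Lama1 and Lamc1, both lower in siEsrrb, had none, so the counts below do not cover them. The Nid1 window holds 1 GC box and 1 CCAAT box, and the Lama5 window 4 GC boxes and 0 CCAAT boxes. GC boxes were found in the windows of 5 of the 8 genes (Col4a2, Hspg2, Lama5, Lamb1 and Nid1) and in 32.7% of all 32851 windows of this length; CCAAT boxes were in 4 of the 8 (Col4a1, Col4a2, Lamb1 and Nid1) and in 33.8% of all. The element bound by ERR receptors (TNAAGGTCA), its half-site (AGGTCA, which every copy of the former contains), a GATA site (AGATAA) and a TATA box (TATAAA), each searched on both strands, were in 0 of the 8 windows; they were in 1.14%, 14.0%, 9.99% and 12.4% of all windows. GC content was 64.4% in the Nid1 window and 72.4% in that of Lama5, against 53.2% over all windows. These matches describe the letters of the windows only.

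Both collagen IV genes were transcribed at a low level. Col4a1 had 0.342 and 0.380 RPKM in siCtrl and 0.268 and 0.289 RPKM in siEsrrb. Col4a2 had 0.216 and 0.295 RPKM in siCtrl and 0.190 and 0.220 RPKM in siEsrrb. After scaling, both siEsrrb libraries lay below both controls for either gene; the deposited RPKM of Col4a2 in siEsrrb replicate 2 lies just above that in siCtrl replicate 1. Col4a1 stood at 81.1% (73.5% to 89.6%) and 77.9% (73.6% to 82.4%) of control in replicates 1 and 2, and Col4a2 at 91.2% (81.6% to 102%) and 76.2% (71.8% to 80.9%). Without the filter on low values the log2 fold changes were -0.13 (SE 0.06, limma adjusted p = 0.595) for Col4a1 and -0.08 (SE 0.05, limma adjusted p = 0.711) for Col4a2. These understate the change, since the pseudocount exceeds the values. Their starts lie head to head on opposite strands, with 78 bases shared by their promoter windows of 300 bases. The genes overlap each other in the annotation, and noncoding genes overlap them too (Gm15418 and Gm32709 at Col4a1, Gm46030 at Col4a2). With the use of strand in counting not given in the sources used here, reads there cannot be assigned. Col4a2 stood at 0.631 and 0.778 times the level of Col4a1 in siCtrl and at 0.710 and 0.761 times in siEsrrb.

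Perlecan, encoded by Hspg2, had the highest level of the 10 in siCtrl. It had 9.97 and 9.07 RPKM in siCtrl and 8.28 and 8.05 RPKM in siEsrrb, 86.1% (84.4% to 87.7%) and 91.0% (89.9% to 92.1%) of control. The groups overlapped after scaling, though not in the deposited RPKM, and the log2 fold change was -0.17 (SE 0.16, limma adjusted p = 0.752). The microRNA gene Mir7018 lies within Hspg2.

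Sparc had 1.81 and 1.98 RPKM in siCtrl and 1.97 and 2.17 RPKM in siEsrrb. It stood at 113% (104% to 123%) and 112% (107% to 118%) of control, above both controls after scaling but overlapping them in the deposited RPKM. The log2 fold change was 0.14 (SE 0.07, limma adjusted p = 0.537).

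**Figure D3:**
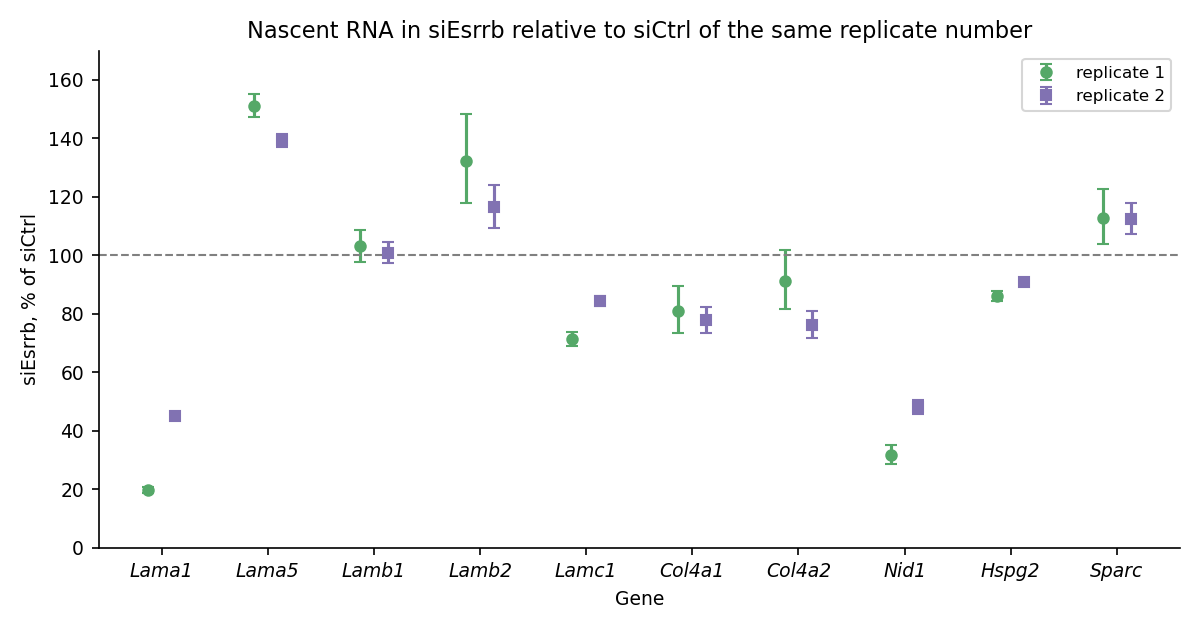
Scaled RPKM in siEsrrb as percent of the siCtrl library of the same replicate number (green circles, replicate 1; purple squares, replicate 2), with 95% counting intervals and a dashed line at 100%. Lama1 (19.8% and 45.1%) and Nid1 (31.7% and 48.2%) lie lowest and Lama5 (151% and 139%) highest.

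Ordered by the scaled mean in siCtrl, the levels were Hspg2 9.42 ± 1.47, Lama5 8.20 ± 1.43, Lamc1 3.19 ± 0.498, Lama1 2.69 ± 0.152, Lamb2 2.29 ± 0.117, Sparc 1.87 ± 0.0501, Lamb1 1.71 ± 0.297, Nid1 1.02 ± 0.0480, Col4a1 0.355 ± 0.00543 and Col4a2 0.2498 ± 0.0328 RPKM (SD, n = 2 each). Neighbours in this order overlapped between libraries for Hspg2 with Lama5 and for Sparc with Lamb1, and were apart for the others. In siEsrrb Lama5 (11.97 RPKM) was above Hspg2 (8.32 ± 0.972 RPKM) in both libraries, and Lama1 was below Lamb1, Lamb2 and Sparc. The control level of Lama1 exceeded that of 71.5% of tested genes and that of Nid1 28.4%. The summed scaled RPKM of all 10 genes was 100.6% of control in replicate 1 and 100.7% in replicate 2.

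Of the 8 tested genes, 3 lay below both controls in each siEsrrb library (Lama1, Nid1 and Lamc1) and 3 lay above (Lama5, Lamb2 and Sparc). Over all tested genes the shares were 22.0% below and 21.8% above, or 43.8% in either direction. Without the scaling factors the counts were 4 and 2, since Hspg2 then lay lower and Sparc overlapped. With genes on both sides of the control in either count, the 8 did not share a direction. Their median log2 fold change was -0.07, against -0.00104 over all tested genes. The median was 0.072 without siCtrl replicate 1, 0.054 without siEsrrb replicate 2, -0.22 without siCtrl replicate 2 and -0.20 without siEsrrb replicate 1.

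**Figure D4:**
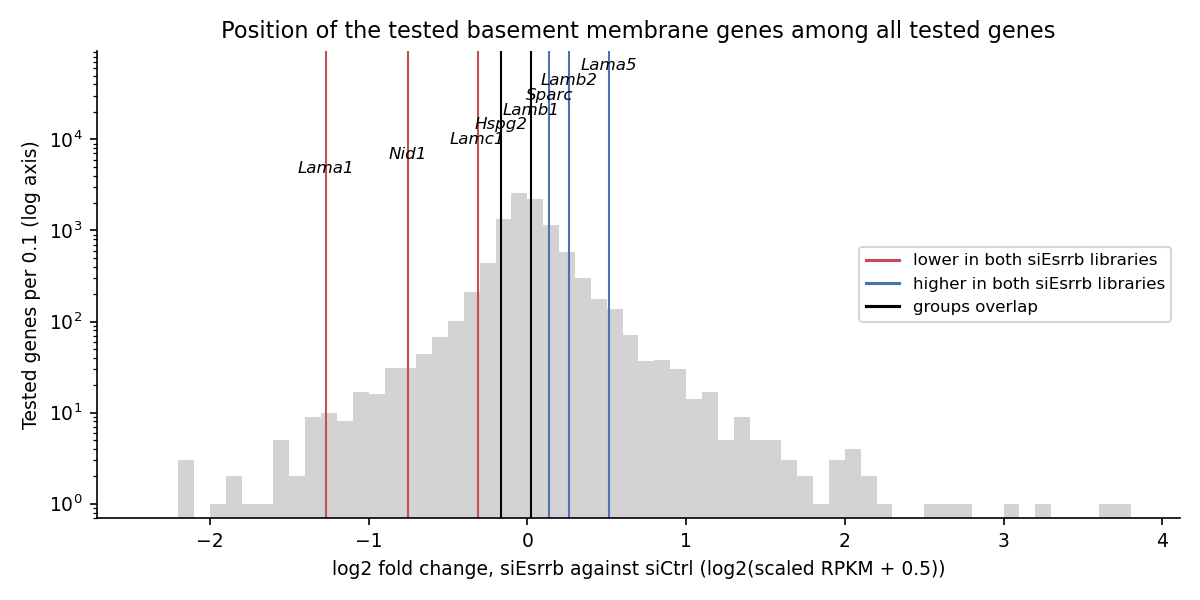
Histogram of log2 fold changes of all 9758 tested genes (grey, log count axis), with the 8 tested basement membrane genes as vertical lines (red, lower in both siEsrrb libraries; blue, higher in both; black, groups overlap). Lama1 (-1.27) and Nid1 (-0.75) lie in the left tail and Lama5 (0.51) to the right. The others lie between, from Lamc1 (-0.31, the 528th lowest) to Lamb2 (0.26, the 1033rd highest).

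Other basement membrane genes were mostly low: 5 of 29 had enough RPKM to be tested, and 0 passed the adjusted test in either direction. Of the 5, 2 were lower in both siEsrrb libraries (Nid2, above, and Smoc1) and 0 were higher, against 22.0% and 21.8% of all tested genes. The median log2 fold change was 0.02. Agrin (Agrn), a large heparan sulfate proteoglycan, was the most abundant of these with 11.2 and 10.0 RPKM in siCtrl and 11.2 and 9.69 RPKM in siEsrrb (log2 fold change 0.02, SE 0.20). Col18a1, a basement membrane collagen, had 5.47 and 4.47 RPKM in siCtrl and 6.44 and 5.26 RPKM in siEsrrb (0.26, SE 0.23). The other alpha chains were nearly silent, with at most 0.0917 RPKM in any library for Lama3 and less for Lama2 and Lama4.

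Receptors for the basement membrane had 10 of 19 genes tested, 0 past the adjusted test and a median log2 fold change of 0.11. In both siEsrrb libraries 1 was lower and 1 was higher, against 22.0% and 21.8% of all tested genes. The lower gene was Itga6, the alpha subunit of a laminin-binding integrin, with 2.65 and 2.89 RPKM in siCtrl and 1.80 and 2.09 RPKM in siEsrrb (log2 fold change -0.39, SE 0.07, limma adjusted p = 0.253). The higher gene was Ddr1, a receptor tyrosine kinase that binds collagens including collagen IV (0.37, SE 0.16, limma adjusted p = 0.496). The integrin beta subunit gene Itgb1 and the tetraspanin gene Cd151, which associates with laminin-binding integrins, had 0.13 (SE 0.13) and 0.12 (SE 0.11). Dystroglycan (Dag1), a laminin receptor of many tissues, had 93.3% and 95.0% of control.

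Genes for collagen folding, crosslinking and export had 12 of 21 members tested, 0 past the adjusted test and a median of -0.04. In both siEsrrb libraries 3 were lower and 1 was higher. For this list and the next, the shares over all tested genes were 22.0% lower and 21.8% higher. Plod1, a lysyl hydroxylase of collagens, had 60.8% and 73.6% of control (log2 fold change -0.37, SE 0.09, limma adjusted p = 0.334). Serpinh1, the collagen chaperone of the endoplasmic reticulum, had 144% and 132% of control (0.36, SE 0.07, limma adjusted p = 0.277). P4hb, which is part of prolyl hydroxylase, and the lysyl hydroxylase gene Plod3 were the most abundant, with 0.24 (SE 0.19) and 0.03 (SE 0.09). Among 17 matrix proteases and inhibitors 3 were tested and 0 passed the adjusted test; 1 was lower in both siEsrrb libraries and 0 were higher (median -0.17). Mmp11 was the lower one (67.4% and 80.8% of control, log2 fold change -0.35, SE 0.12, limma adjusted p = 0.428), and the protease inhibitor gene Timp1 had -0.17 (SE 0.13).

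**Figure D5:**
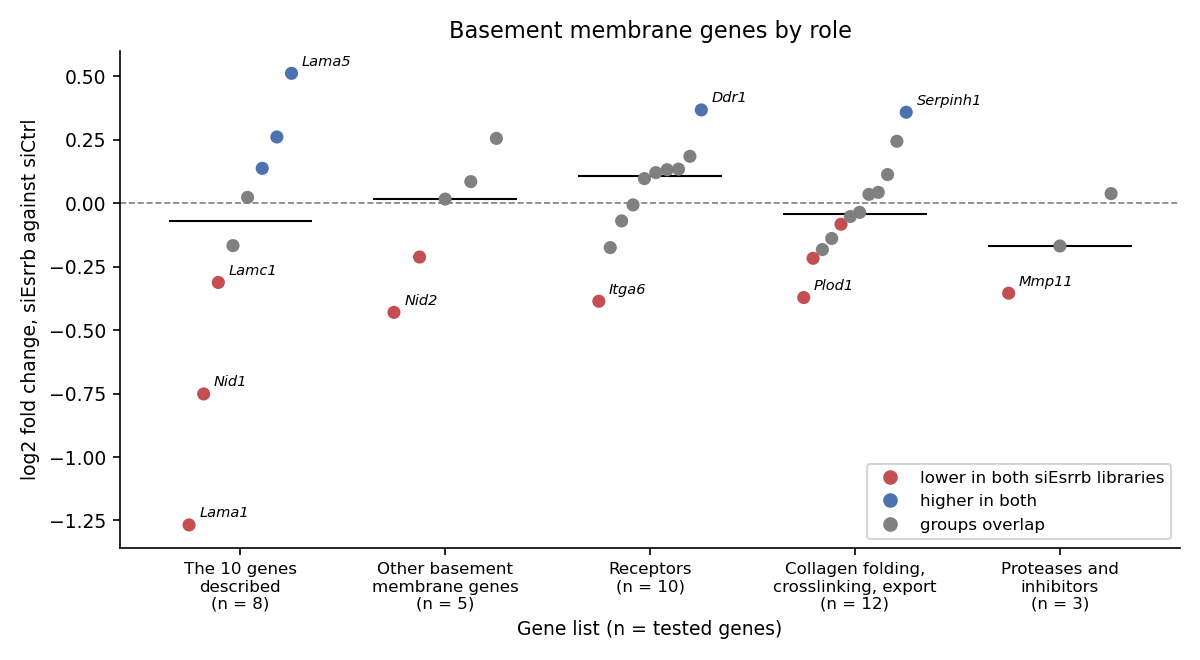
Log2 fold changes of the tested genes of each list, with a dot per gene (red, lower in both siEsrrb libraries; blue, higher in both; grey, groups overlap) and a line at the median. The medians lie between -0.17 and 0.11, and Lama1 and Nid1 lie below every gene of the other lists plotted.

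The label of the cells was checked with marker genes. Sox2, a core pluripotency factor, had 20.8 to 23.3 RPKM over the 4 libraries, and all 10 stem cell markers were above the expression minimum. Primitive and parietal endoderm, cells known for abundant laminin and collagen IV, were near absent by their defining factors. Gata4 had at most 0.0552 RPKM, Gata6 0.0493, Sox17 0.0366 and Pdgfra 0.0250 in any library. Of 12 endoderm markers 1 was tested, Lrp2, an endocytic receptor also used by other tissues, with 2.09 and 1.77 RPKM in siCtrl and 3.28 and 2.75 RPKM in siEsrrb (log2 fold change 0.57, SE 0.19, limma adjusted p = 0.414). It was also the 1 tested gene of the wider endoderm list of 18. The other 11 markers summed to 0.362 and 0.419 scaled RPKM in siCtrl and 0.386 and 0.374 in siEsrrb, and 0 of them were at 0 in every library. Fibroblast markers had 3 of 17 tested and summed to 12.3 and 14.4 scaled RPKM in siCtrl and 13.8 and 15.4 in siEsrrb, most of it from Fn1, which stood at 98.0% and 98.5% of control; Acta2 (log2 fold change 0.44) and Tagln (0.62) were higher in both siEsrrb libraries. The fibroblast collagen genes Col1a1 and Col1a2 had at most 0.334 and 0.160 RPKM. Endothelial markers had 1 of 6 tested, Pecam1, at 74.2% and 80.8% of control, and summed to 1.69 and 1.72 against 1.36 and 1.49 scaled RPKM. Trophectoderm markers had 3 of 6 tested, all overlapping between groups (among them Krt18 and Krt8, with log2 fold changes of 0.50 and 0.54), and summed to 12.01 and 8.47 against 17.2 and 10.8. The part of these cell types in the results was not tested, and in bulk RNA fewer cells of a type and less RNA per cell cannot be told apart. Among the 10 stem cell markers, 5 were lower in both siEsrrb libraries and Pou5f1 (log2 fold change 0.42) was higher in both. The shares over all tested genes were 22.0% lower and 21.8% higher. Of the lower markers, Zfp42 (log2 fold change -0.85), Fgf4 (-0.67), Dppa5a (-0.62) and Nanog (-0.47) had the larger differences.

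The study concerns communication of promoters with enhancers inside small chromatin domains, so the nearest tested gene on either side of each of the 10 was read in the order of GRCm38.p6. Of 18 such neighbours 4 were lower and 3 were higher in both siEsrrb libraries, and 0 passed the adjusted test of limma. Over all tested genes 22.0% were lower and 21.8% higher in this way. The 18 include Mir7005 and Mir7018, which overlap Lama5 and Hspg2, so their reads cannot be told from those of these genes. Beside Lama1, Rab12, a small GTPase gene, stood at 71.8% and 82.7% of control (log2 fold change -0.27, SE 0.10). Beside Nid1, B3galnt2, a glycosyltransferase gene, stood at 88.8% and 92.4% (-0.11, SE 0.07). Both neighbours were thus closer to the control than Lama1 and Nid1. Irs2, an insulin receptor substrate beside the collagen IV pair, lay on the other side, at 169% and 148% of control (0.46, SE 0.16), and Naxd beyond the pair had 97.5% and 92.0%. Dld next to Lamb1 had 0.16 (SE 0.07) and Ccdc71 next to Lamb2 0.20 (SE 0.08).

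The genes whose pattern over the 4 libraries was most like that of Lama1 were found by the Euclidean distance of scaled log2 values centred on each gene's mean. Only tested genes with a mean of at least 1 RPKM were searched. Symbols that start with Mir, Snor or Gm and a digit, or that end in Rik, were left out. They were Jam2, a junctional adhesion molecule (distance 0.118), Cobl, an actin nucleator (0.149), Tet2, an eraser of DNA methylation (0.171), Nphs1, which encodes nephrin (0.185), and Tbx3, which encodes a T-box transcription factor (0.202). Jam2 had 3.04 and 2.89 RPKM in siCtrl and 0.555 and 1.23 RPKM in siEsrrb, close to Lama1 in level as well. Percentages of control were 18.9% and 43.7% for Jam2, 15.5% and 39.4% for Cobl, 28.8% and 53.8% for Tet2, 22.2% and 38.3% for Nphs1, and 19.8% and 34.0% for Tbx3. In each of these genes, as in Lama1, siEsrrb replicate 1 was the lowest library. With 4 libraries, likeness of this kind is shared by any gene that was lower in siEsrrb by a similar amount and lowest in replicate 1.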

How the data were processed

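The authors deposited RPKM per RefSeq transcript for 4 nascent RNA libraries. The submitters' processing notes name CASAVA 1.4, TopHat2 and mm9, and for replicate 1 also Bowtie 1.1.1 and Bowtie2; the sources used here do not give the counting program, strand use or annotation version. A series table holds the replicate 1 values again (34929 of 34929 transcripts) and was not used; 56 other samples were not analysed here. Symbols came from RefSeq (GRCm38.p6) for 34631 transcripts; per symbol the transcript with the highest summed RPKM was taken. Lengths implied by the RPKM span introns (within 1% of the gene span for 74.7% of 15773 genes with 1 transcript). Reads were recovered as RPKM times length and library total, whole within 0.01 of a read. RPKM were scaled by median-of-ratios factors (0.925 to 1.09) and log2(RPKM + 0.5) was tested with limma 3.58.1 (R 4.3.3, trend, 2 groups), after a test on simulated data. An exact permutation test of 2 against 2 cannot go below p = 0.333, so none was run. Replicate numbers come from the titles (the first pair carries none). Genes and lists were chosen with earlier results of these data known. Besides the 10 genes, the text names genes of fixed lists that were apart between groups by an absolute log2 fold change of at least 0.3, the 2 most abundant of each list, neighbours apart between groups (1 is not reported here), and the 5 genes nearest to Lama1; Smoc1, Dag1, Lama2 to Lama4, the cell type factors at low levels and Col1a1 and Col1a2 were named after their values were seen. Alternatives changed the pseudocount, filter, scaling, transcript, libraries, block and tool.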

Additional observations from a re-analysis of the deposited data

How the results depend on the processing

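With 2 libraries per group, an estimate of spread rests on few degrees of freedom, and the low depth of replicate 1 limits Lamb2, Nid1 and the collagen IV genes. The directions of Lama1, Lama5, Lamb2, Lamc1, Nid1, Hspg2 and Sparc were the same under every alternative that tested them (13 or 14 each), with ranges of -1.75 to -0.94 for Lama1, -1.30 to -0.52 for Nid1 and 0.28 to 0.74 for Lama5; Lamb1 changed sign in 3 of 13. Genes past the threshold numbered 0 to 12 when a library was left out (2 without siCtrl replicate 1, 12 without siEsrrb replicate 2, none of them one of the 10 genes). In these fits 1 group had 1 library, so lower or higher meant that the remaining libraries of the groups did not overlap. By that rule 3 to 4 of the tested genes were lower and 3 to 4 higher. It is easier to meet than with 2 against 2, so these counts cannot be set beside the main ones. The median ran from -0.22 to 0.072. Without a filter on low values 5 of 10 genes were lower; at a mean RPKM of at least 2, 1 of 4 was lower and the median was 0.047 (in both cases other genes are counted). Same-numbered libraries deviated together (correlation 0.39 across genes), but no label pairs them. With the replicate number as a block, limma called 0 genes and the median stayed at -0.07. Voom with that block, chosen after seeing the data, called 2754 genes (28.2%), among them 7 of the 8 tested genes (4 lower and 3 higher, all but Lamb1). The planned edgeR and DESeq2 fits were not run, since the files hold RPKM; voom took their place.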
